A study of Mus musculus with 12 samples.

Results

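In the livers of mice 3 weeks after injection of NICD1 and myr-AKT plasmids, 10 genes were read at over 1000 counts that were at 0 or 1 count in the 3 control livers of the same stage. These genes are Gp2, Igfbpl1, Akr1cl, Snap91, Nexmif, Upk3a, Adamts16, Tubb2b, Cck and Vipr2. They were chosen by those counts, summed over the 3 libraries of each group, and 39 of the 21807 genes in the table lay within the same limits. Of the 10 genes, 8 had 0 counts in the late controls, and Gp2 and Vipr2 had 1 count each. The 3-week values are therefore a description of the choice, while the 2-week libraries played no part in it and are the ones on which the genes were tested.

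Liver RNA of C57BL/6J mice was sequenced as 12 libraries in 4 groups of 3. NICD/myr-AKT livers, labelled as CCA (cholangiocarcinoma) tumor, came from mice that received the NICD1 plasmid, the myr-AKT plasmid (10 µg of each per mouse) and the Sleeping Beauty transposase by hydrodynamic tail vein injection, and were taken at 2 weeks (libraries 33, 34 and 35) and at 3 weeks (libraries 1, 2 and 3). Control livers, labelled WT, came from mice that were not injected and belong to the 2-week stage (libraries 30, 31 and 32) or the 3-week stage (libraries 10, 11 and 12), so that the injection and the genes it delivered cannot be told apart. The study's methods state that the mice were males, 5 weeks old when the tumors were induced. Nothing states that the 3 libraries of a group are separate mice, and the spread that p-values rest on may then be technical.

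Notch receptors release their intracellular domain, NICD, which enters the nucleus and joins the DNA-binding protein RBPJ at target genes. Notch signalling directs liver progenitor cells towards the bile duct lineage, and together with myr-AKT, a form of the kinase AKT held at the membrane, NICD1 turns hepatocytes into cholangiocarcinoma-like lesions. The 10 genes are best known outside the liver, in the pancreas, gut, nervous system, gonads and bladder, and they code for a granule glycoprotein, a hormone, a hormone receptor, secreted proteins, an enzyme and proteins of neurons.

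Promoter windows of 300 bases, from 250 before to 50 after the start of the gene, were found in RefSeq (GRCm38.p6) for 7 of the 10 genes, with no entry for Igfbpl1, Adamts16 and Tubb2b. The 4 shown are that of Gp2, the gene with the highest level, those of Cck and Akr1cl, the genes with the lowest share of their 3-week level at 2 weeks, and that of Upk3a, the gene with the highest share. Capitals mark TGGGAA, the core of the sequence that RBPJ binds, or TTCCCA, the same letters on the opposite strand, and each window is written on the strand of its gene.
Gp2 (chr7:119459223-119459522, minus strand): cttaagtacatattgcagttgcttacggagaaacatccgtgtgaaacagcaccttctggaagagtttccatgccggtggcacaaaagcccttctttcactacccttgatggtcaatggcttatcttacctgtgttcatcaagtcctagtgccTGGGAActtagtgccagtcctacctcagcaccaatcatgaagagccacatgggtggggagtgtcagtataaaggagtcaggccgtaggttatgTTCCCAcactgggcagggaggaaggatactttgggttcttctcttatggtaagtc
Cck (chr9:121495645-121495944, minus strand): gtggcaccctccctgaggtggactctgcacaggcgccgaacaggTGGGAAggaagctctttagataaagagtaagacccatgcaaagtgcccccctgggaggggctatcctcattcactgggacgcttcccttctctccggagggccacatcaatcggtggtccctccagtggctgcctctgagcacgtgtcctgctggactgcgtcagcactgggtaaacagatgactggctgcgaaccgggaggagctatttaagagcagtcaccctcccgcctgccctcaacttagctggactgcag
Akr1cl (chr1:65032710-65033009, minus strand): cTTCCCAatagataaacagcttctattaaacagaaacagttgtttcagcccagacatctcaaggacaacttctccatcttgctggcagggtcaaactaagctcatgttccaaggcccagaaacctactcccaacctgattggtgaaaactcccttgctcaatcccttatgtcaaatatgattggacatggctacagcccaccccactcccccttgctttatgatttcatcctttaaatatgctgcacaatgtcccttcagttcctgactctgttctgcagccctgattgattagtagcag
Upk3a (chr15:85016891-85017190, plus strand): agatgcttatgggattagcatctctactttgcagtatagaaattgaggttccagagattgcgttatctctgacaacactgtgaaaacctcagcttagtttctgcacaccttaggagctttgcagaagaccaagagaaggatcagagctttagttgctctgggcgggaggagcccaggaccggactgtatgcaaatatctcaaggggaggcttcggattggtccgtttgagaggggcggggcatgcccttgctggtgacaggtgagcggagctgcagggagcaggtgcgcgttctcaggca

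The letters TGGGAA stood in the windows of Gp2 (starting at positions -98 on the gene's strand and -5 on the opposite one), Cck (-206, gene's strand) and Akr1cl (-249, opposite strand), counted from the gene's start. They were in 3 of the 7 windows, and in 25.4% of all 32544 windows of the table when both strands were read. TATAAA, the TATA box, stood at -32 in Gp2 alone of the 7, against 13.6% of all windows. AACAAT, the core of the SOX motif, was in the Nexmif window at -232, against 10.6% of all windows, and CATTCC, the core of the TEAD motif, was in 0 of the 7, against 14.6%. The 7 windows held different numbers of CpG dinucleotides, from 0 in Akr1cl, 4 in Gp2, 8 in Nexmif, 9 in Upk3a and 10 in Cck to 18 in Vipr2 and 35 in Snap91, where the median of all windows was 7 and the quartiles were 3 and 20. The windows thus shared neither a searched motif nor a CpG content.

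The libraries held 13136892 to 19594839 counts. Levels are counts per 1e6 (CPM) with TMM scaling over the 12 libraries. The livers were recognisable as liver in every library, since Alb, the gene of serum albumin, stood between 16272 and 135937 CPM. Akt1, whose counts may include those of the plasmid, was at 74.5 to 85.3 CPM in the 3-week controls and at 594 to 850 CPM in the 3-week NICD1/Akt livers. In the 2-week controls it was at 90.9 and 90.1 CPM in libraries 30 and 31 and at 381 CPM in library 32, and Notch1 was at 49.1, 53.8 and 106 CPM in the same order. The summed CPM of 8 biliary markers were 87.5 and 89.4 in libraries 30 and 31, 2046 in the library labelled control 32, and 1185 to 4738 in the 2-week NICD1/Akt livers. Ddx3y, a gene of the Y chromosome, was at 57.2 CPM in library 32, while the other 5 of the stage held 0 to 0.398 CPM. These 5 libraries thus go against the stated sex of the mice, and library 32 does not. Library 32 stands apart from the other controls in these values, and 2-week results are given with and without it. At 3 weeks the 8 biliary markers summed to 92.9 to 135 CPM in the controls and 3501 to 4121 CPM in the NICD1/Akt livers. Of these markers 7 were tested at 3 weeks and 7 were higher, against 38.9% of all genes tested. The part of biliary cells in the levels of the 10 genes was not tested. In bulk tissue, fewer cells of a type and less RNA per cell cannot be told apart.

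**Figure D1:**
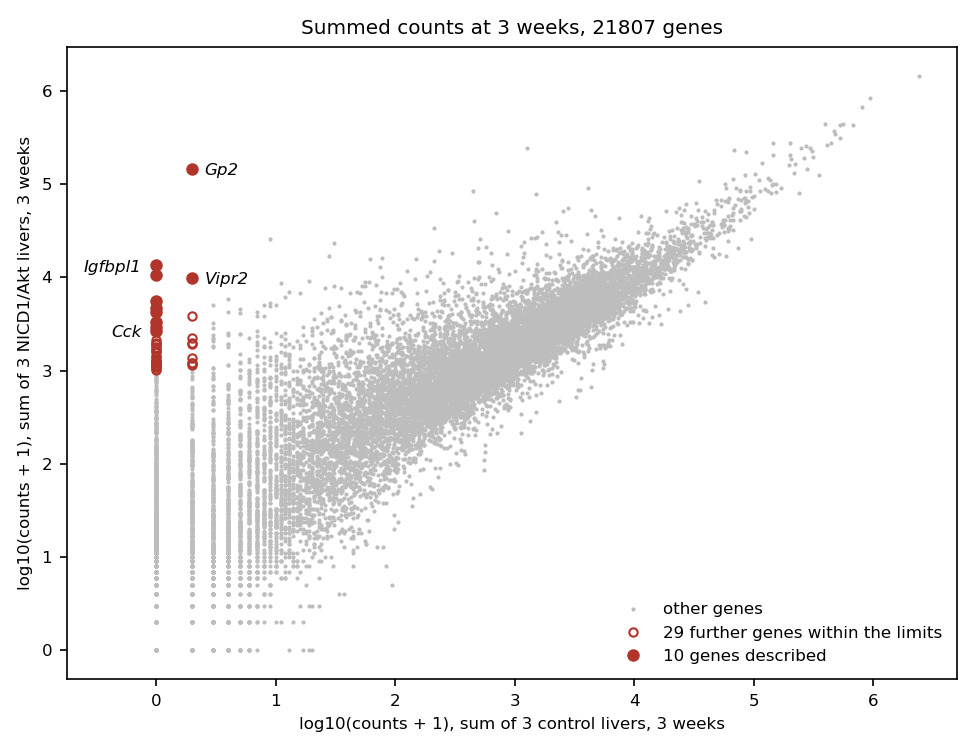
Summed counts of all 21807 genes in the 3 control livers (x axis) and the 3 NICD1/Akt livers (y axis) of 3 weeks, both as log10 of counts + 1. Filled red points are the 10 genes described, open red points the 29 further genes within the same limits, and Gp2, at 145478 counts against 1, stands above the other red points.

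Gp2 codes for glycoprotein 2, the main membrane glycoprotein of the zymogen granules of pancreatic acinar cells, which is also made by the M cells of the gut, where it binds bacteria. At 3 weeks it was read at 43650, 57186 and 44642 counts in the NICD1/Akt livers 1, 2 and 3 and at 0, 1 and 0 counts in the controls 10, 11 and 12. These are 1654, 2106 and 2080 CPM (mean 1946 ± 254, SD, n = 3), and the ratio of the groups was 68025, with a 95% exact counting interval of 12209 to 2686870 that covers counting error only. Per kb of exon its level in the late NICD1/Akt livers, 974 CPM per kb, ranked 29th of 21621 genes, which places a transcript listed at almost nothing in late control liver among the most abundant of the tumor livers.

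At 2 weeks controls 30, 31 and 32 held 4.06, 3.24 and 211 CPM of Gp2, and NICD1/Akt livers 33, 34 and 35 held 119, 85.3 and 822 CPM. Control 32 was above NICD1/Akt livers 33 and 34, so the groups overlapped. The log2 fold change was 2.25 ± 1.72 (SE) and did not pass the test (edgeR quasi-likelihood, adjusted p = 0.569). Unlike in the 3-week controls, Gp2 was read in each 2-week control, at 61 and 45 counts in libraries 30 and 31.

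None of the acinar cell markers that could be tested was higher beside Gp2 at 3 weeks. Of 12 acinar markers 5 had 0 counts in all 12 libraries (Cpa1, Pnlip, Amy2a5, Ptf1a and Rbpjl, that is carboxypeptidase, lipase, amylase and the acinar transcription factors), and at 3 weeks 0 of the 3 tested were higher and 2 lower. The summed level of the 12 was 17.7 to 25.7 CPM in the late NICD1/Akt livers and 65.3 to 77.5 CPM in the controls. Cela1, at a mean of 18.7 CPM, was the largest part of the former. In the late NICD1/Akt livers 6 of the 12 were read, against 3 in the late controls, and 3 in each held over 10 counts. Of 6 M cell markers, 5 were higher and 1 lower at 3 weeks, with 277 to 360 against 94.5 to 110 summed CPM. Over all genes tested at that stage 38.9% were higher and 33.1% lower. Spib, the transcription factor that M cells need, was at 53.6, 73.2 and 71.8 CPM against 0.690, 0.696 and 1.42 CPM (log2 fold change 6.25, adjusted p = 4.09e-07). The part of such cells in the Gp2 level was not tested.

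Umod, uromodulin, the closest relative of Gp2 and a protein of the kidney tubule, was at 26.0, 34.7 and 38.3 CPM in the late NICD1/Akt livers against 0, 0.261 and 0.0834 CPM in the controls. It rose by 8.21 on the log2 scale (SE 0.39, adjusted p = 8.97e-07). At 3 weeks 38.9% of the 13408 genes tested were higher and 33.1% lower at an adjusted p under 0.05, with a median log2 fold change of 0.06 over all genes. Of the 5 genes listed with Gp2, which are relatives with a zona pellucida domain and Zg16, a lectin of zymogen granules, 3 were tested, and besides Umod, Dmbt1 was higher (log2 fold change 5.26, adjusted p = 0.0014) and Oit3, a liver protein, lower (-0.73, adjusted p = 0.000444). The Dmbt1 levels were 0.792 to 2.10 CPM, and with the 2-week controls added its log2 fold change was 2.47 (adjusted p = 0.0999). With library size as the only scaling Oit3 was at -0.03 (adjusted p = 0.818).

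**Figure D2:**
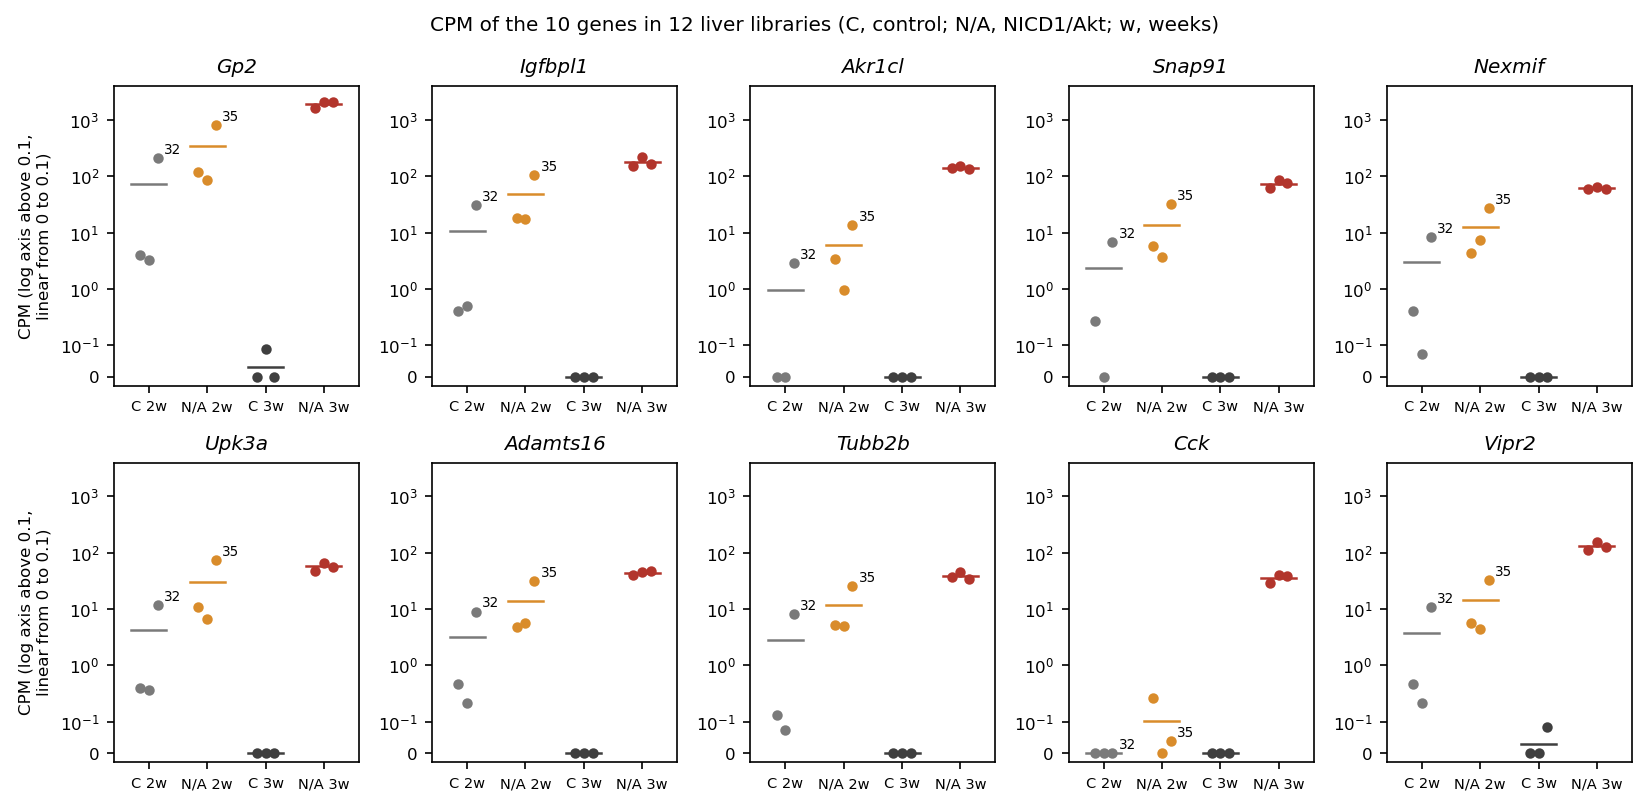
CPM of each of the 10 genes in the 12 libraries (y axis, logarithmic above 0.1 and linear from 0 to 0.1), by group on the x axis: control and NICD1/Akt livers of 2 and 3 weeks. Points are libraries and bars group means; libraries 32 and 35 are marked, and Cck is the gene at or near 0 in every 2-week library.

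Cck, cholecystokinin, is the hormone of the upper gut that contracts the gallbladder and releases pancreatic enzymes. In the late NICD1/Akt livers it was at 777, 1075 and 835 counts, or 29.4, 39.6 and 38.9 CPM, and in the late controls at 0 counts in each library. Against a floor of 3 counts over the control group it was at least 421-fold higher.

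Cck departed from the other genes at 2 weeks. It had 0 counts in controls 30, 31 and 32, and 4, 0 and 1 counts in NICD1/Akt livers 33, 34 and 35. Library 35, which was the highest 2-week library for each of the other 9 genes, held 0.109% of the mean 3-week NICD1/Akt level of Cck. Cck was the lowest of all 39 genes within the count limits by this share, and the low-count filter left it out of the 2-week test. The next lowest gene was Guca2b, at 3.90%.

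The receptors of Cck were read at low levels or not at all. Cckbr had 0 counts in all 12 libraries, Cckar was at 0.0368 to 0.606 CPM in the late NICD1/Akt livers and at 0 in the late controls, and Gast, the sister hormone gastrin, was read as 1 count in 1 library. The low-count filter left all 3 out of the edgeR test. DESeq2, run without that filter, called Cckar higher (log2 fold change 4.22, adjusted p = 0.0349), and edgeR without the filter did not (5.34, adjusted p = 0.0636). Of 10 endocrine cell markers 5 had 0 counts throughout (Chga, Scg3, Neurod1, Gcg and Sst), and the summed level of the list was 0.568 to 0.847 CPM in the late NICD1/Akt livers and 0.583 to 0.871 CPM in the controls. Of the list, 3 genes were read in the late NICD1/Akt livers and 3 in the late controls, with Syp the highest in the former at 0.671 CPM. Chga and Scg3, genes of the hormone granules, were thus not read beside Cck, while others of the list were, at low levels.

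Vipr2 codes for a receptor of the neuropeptides VIP and PACAP that raises cAMP, known from smooth muscle and the brain's clock. It was at 114, 156 and 128 CPM in the late NICD1/Akt livers, and its 1 control count fell in library 12. The ratio of the groups was 4662, with a 95% exact counting interval of 837 to 184155. At 2 weeks it was at 0.466, 0.216 and 10.7 CPM in controls 30, 31 and 32 and at 5.65, 4.51 and 32.9 CPM in NICD1/Akt livers 33, 34 and 35, again with control 32 above livers 33 and 34. Its log2 fold change was 1.95 ± 1.41 (SE, adjusted p = 0.557).

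Neither ligand of Vipr2 was found. Vip and Adcyap1, which codes for PACAP, had 0 counts in all 12 libraries. Vipr1, the sister receptor, was at 35.9 to 39.1 CPM in the late controls and 32.9 to 42.3 CPM in the late NICD1/Akt livers (log2 fold change 0.06 ± 0.12, adjusted p = 0.643), but with library size as the only scaling it was higher (0.77, adjusted p = 0.000267). Adcyap1r1, the PACAP receptor, was higher in the late NICD1/Akt livers (5.17 to 6.96 against 0.0863 to 0.5001 CPM, log2 fold change 4.30, adjusted p = 2.39e-05), but at 2.00 to 7.59 CPM in all 2-week libraries, and with all 6 controls its log2 fold change was 1.45 (adjusted p = 0.198). Of this list of 10 hormones and receptors, 4 were tested at 3 weeks, with Sct, secretin, also higher (3.597 on the log2 scale, adjusted p = 0.00246, at most 0.947 CPM) and Gcgr, the glucagon receptor, lower (-1.26, adjusted p = 0.000228). Smooth muscle markers also moved, with 5 of 6 higher, against 38.9% of all genes tested. They summed to 103 to 155 CPM in the late NICD1/Akt livers against 15.96 to 34.8 CPM in the controls, and their part in the Vipr2 level was not tested.

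Among the secreted proteins, Igfbpl1, an insulin-like growth factor binding protein-like factor known from the brain and retina, was the next most abundant after Gp2 per kb (54.9 CPM per kb). It was at 153, 219 and 164 CPM in the late NICD1/Akt livers and at 0 counts in the late controls, at least 2087-fold higher. At 2 weeks it stood at 0.399, 0.505 and 30.7 CPM in the controls, and the NICD1/Akt livers held 18.1, 17.7 and 107 CPM. Control 32 lay above livers 33 and 34, and the log2 fold change of 2.20 ± 1.54 (SE) had an adjusted p of 0.549.

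The 7 genes of insulin-like growth factor binding proteins, Igfbp1 to Igfbp7, differed from Igfbpl1 in that each was read in every library. At 3 weeks 3 were higher and 3 lower, against 38.9% and 33.1% of all genes tested. Igfbp5 rose (log2 fold change 3.49, adjusted p = 2.81e-05), and Igfbp1 and Igfbp2, made by hepatocytes, fell by 2.89 and 1.76 on the log2 scale (adjusted p = 0.000223 and 0.000198). The call of Igfbp3, another of the 3 that were higher (0.75, adjusted p = 0.00991), was lost with all 6 controls (0.20, adjusted p = 0.575).

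Adamts16, a secreted metalloprotease of the ADAMTS family known from kidney and gonads, was at 40.5, 46.1 and 47.1 CPM in the late NICD1/Akt livers and at 0 counts in the late controls, at least 521-fold higher. At 2 weeks it was at 0.466, 0.216 and 9.04 CPM in the controls, and NICD1/Akt livers held 4.72, 5.62 and 31.5 CPM. The log2 fold change was 2.14 ± 1.37 (SE, adjusted p = 0.526), and control 32 again lay between the lowest and highest NICD1/Akt liver.

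Other ADAMTS genes moved the same way at 3 weeks, since 14 of the 15 tested, from a list of 18, were higher and 0 were lower. Over all genes tested 38.9% were higher and 33.1% lower. The median log2 fold change of the 15 was 3.07, against 0.06 over all genes. The highest changes were those of Adamts8, Adamts6 and Adamts12 (5.16, 4.44 and 4.43 on the log2 scale, adjusted p = 0.000217, 6.59e-06 and 4.11e-06). Adamts8 was at 1.02 to 1.35 CPM and Adamts6 at 11.02 to 16.3 CPM in the late NICD1/Akt livers, and both had counts in the late controls. Adamts18, the closest relative of Adamts16, had 0 counts in all 12 libraries. Without library 1, 13 of the 15 ADAMTS genes tested were higher and 1 was lower, against 36.5% and 30.8% of all genes in that fit. The call of Adamts14, the smallest of the 14 (0.79, adjusted p = 0.0261), was lost without library 1, 2, 10 or 12 (adjusted p = 0.0642 to 0.0943) with all 12 libraries in 1 fit (0.0806) and with all 6 controls (0.194), as were those of Adamts3 (adjusted p = 0.058) and Adamts10 (0.139) with all 6 controls.

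Akr1cl, a relative of the aldo-keto reductases that act on steroids, was at 140, 151 and 133 CPM in the late NICD1/Akt livers, with an SD of 8.97 around a mean of 141 CPM, and at 0 counts in the late controls. This was at least 1651-fold higher. At 2 weeks it was at 0, 0 and 2.86 CPM in controls 30, 31 and 32 and at 3.39, 0.962 and 13.8 CPM in NICD1/Akt livers 33, 34 and 35. For Akr1cl, library 32 lay above liver 34 only. The log2 fold change was 2.72 ± 1.64 (SE, adjusted p = 0.520). With Cck it was the gene furthest from its 3-week level, since library 35 held 9.78% of it. In the GENCODE M21 annotation Akr1cl overlaps Gm8550 on the opposite strand. The kit marks strand, but the strand setting of the counting is not given in the sources used here.

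The Akr1c genes that passed the low-count filter at 3 weeks, liver enzymes of steroid and bile acid metabolism, went the other way. Of the 8 listed 6 were tested and 6 were lower (median log2 fold change -1.51), against 33.1% of all genes tested and a median of 0.06. Akr1c14, Akr1c13 and Akr1c19 were at -1.80, -1.59 and -1.53 (adjusted p = 4.16e-05, 3.13e-05 and 6.84e-05). The filter left out Akr1c18 and Akr1c21. The 5 hepatocyte markers were lower too, and what part fewer hepatocytes have in the Akr1c values was not tested. Akr1c6 alone stood at 1256 to 1309.8 CPM in the late controls, in which Akr1cl had 0 counts. At 2 weeks 7 Akr1c genes were tested, with a median log2 fold change of -0.52. Akr1c18 was at 0.89 there (edgeR quasi-likelihood, adjusted p = 0.520).

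Upk3a codes for uroplakin 3A, a protein of the plaques that seal the surface of the bladder. It was at 47.4, 67.0 and 56.9 CPM in the late NICD1/Akt livers and at 0 counts in the late controls, at least 668-fold higher. At 2 weeks it was at 0.399, 0.361 and 11.7 CPM in the controls while the NICD1/Akt livers held 10.8, 6.58 and 74.0 CPM. Of the 10 genes Upk3a had the highest share of its 3-week level in library 35. This library, at 130% of the 3-week mean, lay above all 3 late NICD1/Akt livers, which it did for no other of the 10 genes. The share of Upk3a was also the highest in library 33, at 18.9%, but not in library 34, at 11.5% against 13.2% for Tubb2b. The log2 fold change was 2.91 ± 1.48 (SE, adjusted p = 0.520), the largest of the 9 tested.

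None of the other uroplakins, among them the partners with which Upk3a forms plaques, was called higher at 3 weeks. Upk2 had 0 counts in all 12 libraries, Upk1a was at 0.0834 to 0.261 CPM in the 3-week libraries, and of the 2 uroplakins tested at 3 weeks none passed. Upk3b was at 1.58 to 1.90 CPM in the late controls and 1.26 to 2.50 CPM in the late NICD1/Akt livers (log2 fold change 0.09 ± 0.33, adjusted p = 0.826). Upk1b was at 0.957 to 1.26 CPM and 0.863 to 1.5004 CPM in the late NICD1/Akt livers and controls. At 2 weeks the log2 fold changes of Upk1b and Upk3b were -1.81 and -1.55 (edgeR quasi-likelihood, adjusted p = 0.520 for both). Of 7 urothelial markers 3 were tested at 3 weeks and 1 was higher, against 38.9% of all genes tested. This was Krt20, a keratin of gut and bladder surface cells, at 25.4, 28.1 and 37.7 CPM against 0.173, 0 and 0 CPM.

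The 3 genes known from neurons were Snap91, a clathrin adaptor of synaptic vesicles, Nexmif, an X-linked nuclear factor of neurite growth, and Tubb2b, a beta tubulin of young neurons. In the late NICD1/Akt livers Snap91 was at 62.2, 84.4 and 76.2 CPM, Nexmif at 60.3, 65.4 and 60.4 CPM and Tubb2b at 36.8, 44.7 and 34.8 CPM. All 3 were at 0 counts in the late controls, and were at least 868-fold, 725-fold and 453-fold higher. Nexmif varied least among the late NICD1/Akt livers, with an SD of 4.75% of its mean, against 19.9% for Igfbpl1, which varied most.

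At 2 weeks Snap91 was at 0.266, 0 and 6.72 CPM in controls 30, 31 and 32 and at 5.84, 3.70 and 31.6 CPM in NICD1/Akt livers 33, 34 and 35. Nexmif was at 0.399, 0.0721 and 8.42 CPM and at 4.38, 7.25 and 26.8 CPM, and Tubb2b at 0.133, 0.0721 and 8.19 CPM and at 5.11, 5.11 and 25.6 CPM, in the same order. In all 3 genes control 32 lay above livers 33 and 34 and below liver 35. The log2 fold changes were 2.60 ± 1.52, 2.15 ± 1.39 and 2.13 ± 1.48 (SE), with adjusted p = 0.520, 0.529 and 0.547.

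Genes common to neurons mostly fell below the low-count filter. Of 10 neuronal markers 4 were tested at 3 weeks and 2 were higher, against 38.9% of all genes tested. These were Map2 and Dcx, both genes of microtubule-binding proteins (log2 fold change 4.16 and 5.53, adjusted p = 1.64e-06 and 1.81e-05). Of the 10, 9 were read in the late NICD1/Akt livers and 6 in the late controls, with over 10 counts for 7 and 3. Syt1 was the highest of them in the late NICD1/Akt livers, at a mean of 22.95 CPM. Snap25, a defining gene of synapses, was read in 1 library of 12, at 0.0379 CPM, and Elavl3 in none. The summed level of the list was 50.05 to 58.05 CPM in the late NICD1/Akt livers and 20.4 to 26.4 CPM in the controls, and its part in the levels of the 3 genes was not tested.

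Widely expressed relatives of Snap91 and Tubb2b were read in all 4 groups, and no relative of Nexmif was listed. Picalm, the widely expressed relative of Snap91, was at 167 to 188 CPM in the late controls and 185 to 206 CPM in the late NICD1/Akt livers (log2 fold change 0.23 ± 0.10, adjusted p = 0.0685). Of the 9 clathrin coat and adaptor genes 0 were higher and 4 lower at 3 weeks, against 38.9% and 33.1% of all genes tested. The 4 included Cltb (-1.15, adjusted p = 1.03e-05), Ap2a2 (-0.35, adjusted p = 0.0104) and Ap2s1 (-0.29, adjusted p = 0.00855). With library size as the only scaling the count turned to 8 higher and 1 lower, Cltb, against 67.7% and 9.6% of all genes in that fit. Ap2a2 and Ap2s1 changed sign (0.36 and 0.41), as did the fourth, Ap2m1, from -0.29 to 0.42, and Picalm became higher (0.94, adjusted p = 7.88e-05). Without library 10 or 1 the call of Ap2m1 was lost (adjusted p = 0.0525 and 0.0604).

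Tubb2a, a near-identical copy of Tubb2b, was at 137, 104 and 142 CPM in the late controls, in which Tubb2b had 0 counts, so reads of Tubb2a did not reach Tubb2b there. Its levels in the late NICD1/Akt livers were 46.1, 117 and 51.5 CPM (log2 fold change -0.71, adjusted p = 0.0815), and without library 2 the log2 fold change was -1.28 (adjusted p = 0.000173). Tubb2a also passed with DESeq2 (adjusted p = 0.0445) and with all 12 libraries in 1 edgeR fit (0.0377), and with library size as the only scaling its log2 fold change was 0.02. Of the 7 other beta tubulins 5 were tested at 3 weeks. Tubb5 was higher (2.08, adjusted p = 1.1e-05), Tubb4a higher at 0.559 to 1.74 CPM (1.90, adjusted p = 0.0275), and Tubb6 lower (-0.97, adjusted p = 0.01). The call of Tubb4a was lost without library 1, 11 or 12 (adjusted p = 0.0733 to 0.0841) and with all 6 controls (0.762), and that of Tubb6 with all 6 controls (0.801) and with library size only (0.444).

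**Figure D3:**
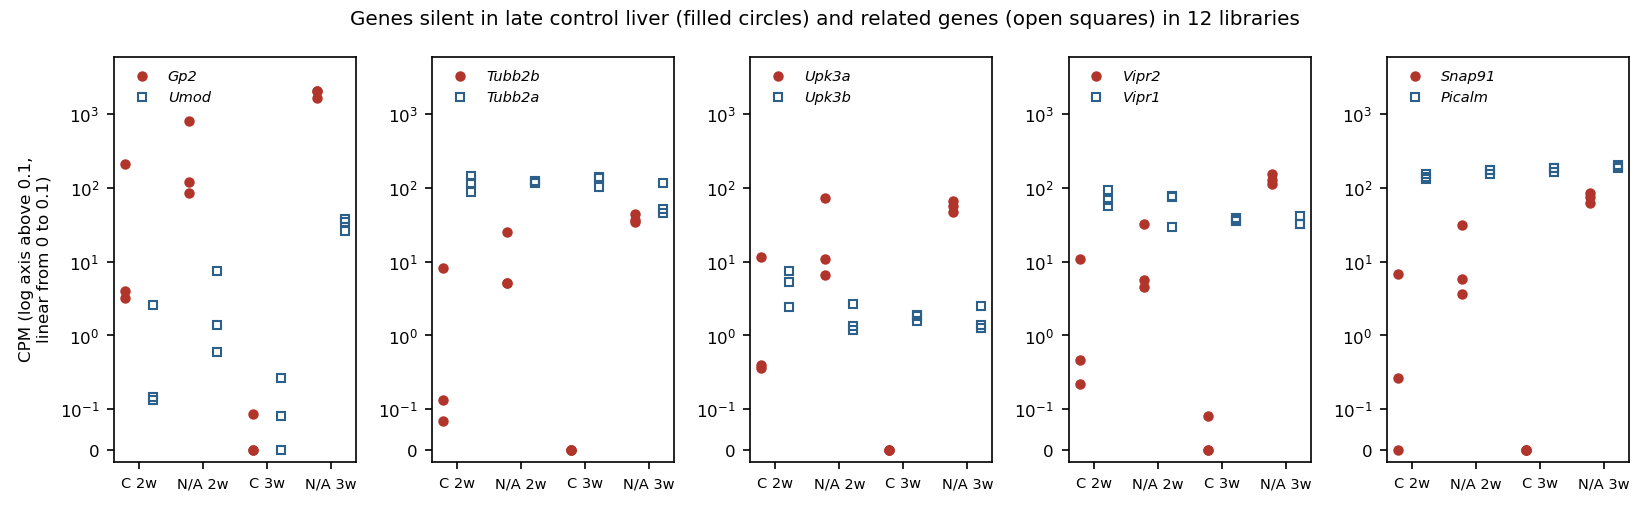
CPM of 5 of the genes (filled circles) and a related gene of each (open squares) in the 12 libraries (y axis, logarithmic above 0.1 and linear from 0 to 0.1), by group. Tubb2a, Vipr1, Upk3b and Picalm were read in every group, while Umod was, like Gp2, near 0 in the late controls.

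The 9 lists of relatives and partners held 51 genes tested at 3 weeks, of which 23 were higher and 16 lower, against 38.9% and 33.1% of all genes. With library size as the only scaling, which moved the all-gene median log2 fold change from 0.06 to 0.77, 34 were higher and 11 lower, against 67.7% and 9.6% of all genes in that fit. At 2 weeks none of 48 tested passed (edgeR quasi-likelihood), and none passed with DESeq2. Without the adjustment, p was under 0.05 for 4 that were higher and 4 that were lower.

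Across the 9 genes tested at 2 weeks the log2 fold changes lay between 1.95 and 2.91 with SE of 1.37 to 1.72, and 0 passed at an adjusted p under 0.05, as did 0% of the 13041 genes tested (edgeR quasi-likelihood). At an unadjusted p under 0.05, 0 of the 9 were higher, against 4.9% of all genes. DESeq2 gave a p for 5 of the 10 genes and called 0 of them, and 22 genes were called in all, 11 in each direction. In 0 of the 10 genes did all 3 NICD1/Akt livers lie above all 3 controls, against 7.38% of the genes tested.

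Without library 32 the same comparison looked different. All 3 NICD1/Akt livers lay above controls 30 and 31 in 9 of the 10 genes, Cck excepted, against 23.3% of the genes tested. The 9 log2 fold changes lay between 5.35 (Adamts16) and 9.69 (Akr1cl), and 9 of 9 were higher at an unadjusted p under 0.05, against 12.3% of all genes. None passed the adjustment (adjusted p = 0.195 to 0.204), and none of all 13239 genes did. Akr1cl held 0 counts in libraries 30 and 31, so that the size of its change was not measured. The others, Gp2 excepted, held 0 to 7 counts in these libraries. Akr1cl and these others passed the low-count filter through the NICD1/Akt livers, so that they could hardly come out lower. The shares of all genes are thus no even measure for them. Library 32 was singled out after its levels were seen, so these counts of genes are a description. Without library 35, in contrast, the log2 fold changes were 0.42 (Vipr2) to 1.21 (Akr1cl). The 9 genes were read in the same libraries, so that their common direction is not 9 separate observations.

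The order of the 2-week libraries was nearly the same in every gene other than Cck. Library 35 was the highest 2-week library in 9 of the 10 genes, library 32 was above library 33 in 8 and above library 34 in 9, and libraries 30 and 31 were the lowest in the 9 genes other than Cck. As a share of the mean 3-week NICD1/Akt level, library 35 held 42.2% of Gp2, 42.5% of Snap91, 43.2% of Nexmif, 59.7% of Igfbpl1, 66.0% of Tubb2b and 70.6% of Adamts16. Vipr2, at 24.8%, Akr1cl, at 9.78%, and Cck lay below these. Library 33 held 2.40% to 18.9% and library 34 0.681% to 13.2% of the same levels in the genes other than Cck. In those 9 genes libraries 33 and 34 were thus closer to each other and to the library labelled control 32 than to library 35. At 3 weeks library 2 was the highest in 9 of the 10 genes and library 1 the lowest in 8.

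**Figure D4:**
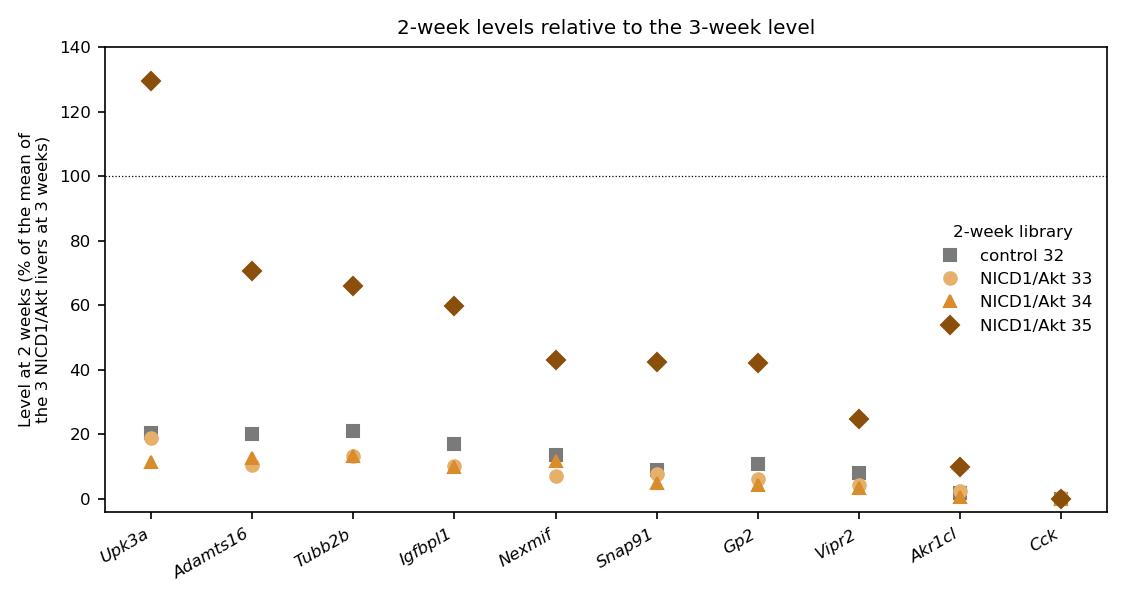
Level of each of the 10 genes in 2-week libraries 32, 33, 34 and 35 as a percentage of its mean over the 3 NICD1/Akt livers of 3 weeks (y axis, linear; dotted line at 100), with the genes on the x axis ordered by library 35. Library 35 runs from 130% for Upk3a to 0.109% for Cck, and lies above the other 3 libraries in every gene but Cck.

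The likeness of patterns was measured as the root mean square difference between log2(CPM + 0.5) values, each centred on the gene's mean over the 12 libraries, so that a lower value is more alike. Adamts16 and Tubb2b were the pair most alike among the 9 genes other than Cck, at 0.201, and Gp2 and Akr1cl the least, at 2.14. The 9 pairs with Cck lay between 1.43 and 3.39. Among 12709 other genes that averaged 1 CPM or more, the nearest to the mean of the 10 was Tgfb2, a growth factor, at 0.391, followed by Rgma (0.512), Rassf10 (0.512), Fam163a (0.515) and Myo5c (0.525). Tgfb2 was at 0.261 to 0.667 CPM in the late controls and 105 to 131 CPM in the late NICD1/Akt livers, so that it is not silent there in the sense used here.

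By the same measure Tgfb2 was also the nearest gene to Snap91 (0.427), Nexmif (0.278) and Vipr2 (0.565), and Rassf10 the nearest to Tubb2b (0.217). Upk3a was most like Cd24a, a surface protein of progenitor and biliary cells (0.358), Adamts16 like the potassium channel subunit Kcne3 (0.240), and Igfbpl1 like the epithelial transcription factor Ehf (0.449). Akr1cl was most like Nmnat2 (0.651) and Gp2 like Gabrp (1.13). Cck was most like Ccl28, a mucosal chemokine (0.533), which stood at 0.0772 to 0.826 CPM over all 2-week libraries and at 18.6 to 38.9 CPM in the late NICD1/Akt livers. These values rest on 12 libraries and on the 3-week difference by which the genes were chosen.

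At the edges of the choice, the genes with the fewest late NICD1/Akt counts were Adamts16 (3332), Tubb2b (2930) and Cck (2687) among the 10, and Guca2a (1102), Megf10 (1047) and Slc6a14 (1022) among all 39 within the limits. Just outside by this limit lay Slc28a3 (961), Apln (869) and Fam83e (867), and just outside with 2 control counts lay Hs6st2 (5043), Csmd1 (3208) and Cubn (2853). The 10 genes hold ranks 1 to 7 and 9 to 11 of the 39 by late NICD1/Akt counts, and Rhov, with 3890 counts, holds rank 8.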

How the data were processed

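RNA of 12 mouse liver libraries was sequenced. The values deposited by the authors are raw counts, whole numbers per gene, with 1 table per stage. The study's methods name STAR, mm10 and HTSeq, while the submitters' processing notes name STAR 2.7, Subread 2.0.6 and GRCm39; which made the counts was not settled, so the coordinates given are those of RefSeq windows only. Gene IDs were matched to GENCODE M21 names (21573 of 21807), which also gave exon lengths.

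From the deposited counts, log2 fold changes, SE and p-values were computed per stage on its 6 libraries with R 4.3.3 and edgeR 4.0.16 (TMM, filterByExpr, quasi-likelihood test, Benjamini-Hochberg adjustment over all genes tested, threshold 0.05), and with DESeq2 1.42.0 as an alternative. CPM are scaled by TMM over all 12 libraries. The fit was checked on simulated counts. Folds against controls with 0 counts use a floor of 3 counts over the group, and intervals cover counting error only. Depth was 13136892 to 19594839 counts per library.

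The 10 genes, the lists of relatives and markers and the motifs were chosen with earlier results of these data known. Named are the 10 genes, up to 3 genes of each list that passed at 3 weeks with the largest change, the closest relatives, ligands and receptors, the 10 further genes within the count limits with the most counts, and the genes most alike in pattern. Other genes, markers included, were picked after seeing their values. Alternatives were other scalings, filters, tools and controls, and leaving out each library in turn.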

Additional observations from a re-analysis of the deposited data

How the results depend on the processing

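The 9 genes tested at 2 weeks kept a log2 fold change above 0 under each of 12 alternatives, with 0 past an adjusted p under 0.05 in each. The number higher at an unadjusted p under 0.05 was 0 in the comparison reported, 2 with all 12 libraries in 1 fit and 3 with all 6 controls, both of which use libraries by which the genes were chosen. It was 0 to 9 when 1 library was left out, and 9 without library 32, where the controls left were near 0 in most of these genes. The cause was not tested. At 3 weeks the median log2 fold of the 10 genes over the controls, with 0 counts set to the floor, was 9.63. It was 10.46 with library size as the only scaling, 5.54 with all 6 controls, which adds the counts of library 32, and 9.03 to 9.70 when 1 library was left out. The count limits were met by 39 genes, by 59 with up to 3 control counts, by 65 with over 500 NICD1/Akt counts, and by 20 to 54 when 1 library was left out, since a sum over fewer libraries is smaller. Leaving out NICD1/Akt library 1, 2 or 3 gave 24, 20 and 24 genes. On the gene's strand alone, TGGGAA stood in 2 of the 7 promoter windows instead of 3. No paired analysis was possible because the libraries carry no replicate numbers shared between groups. At these depths, 0 counts in the 3 late controls allow up to 3 counts over the group, or 0.0855 CPM, so that a lower level in control liver was not detectable.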

Other observations

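A further 29 genes lay within the same count limits at 3 weeks, 21 of them with 0 counts in the late controls. By late NICD1/Akt counts the first 10 of these were Rhov, Calr4, Gm17783, S100b, Scube3, Erich5, Col2a1, Prss35, Madcam1 and Wnk3. Rhov, a small GTPase, was at 38.7, 66.0 and 50.2 CPM in the late NICD1/Akt livers, and Col2a1, the collagen of cartilage, at 24.0, 34.8 and 16.7 CPM. Scube3, a secreted protein with EGF domains, was at 27.1, 26.5 and 24.9 CPM, and in the 2-week NICD1/Akt livers 33, 34 and 35 it was already at 14.0, 17.1 and 42.3 CPM, with 17.1 CPM in control 32.

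Genes known from gut and pancreas were among the rest, and were picked here after their values were seen. Pdx1, a transcription factor of pancreas and duodenum, was at 14.4, 16.8 and 22.04 CPM in the late NICD1/Akt livers and at 0 counts in the late controls. Guca2a and Guca2b, the gut peptides guanylin and uroguanylin, were at 10.2 to 17.4 and 11.3 to 18.9 CPM, and like Cck were low at 2 weeks, with at most 0.787 and 0.590 CPM in any library. Gpx2, the glutathione peroxidase of gut epithelium, was at 13.8 to 28.4 CPM, below its 38.8 CPM in 2-week library 35. In library 35 the 29 genes held 3.90% (Guca2b) to 177% (Gpx2) of their 3-week level, with a median of 49.8%, beside a median of 42.9% for the 10 genes described above. These genes were chosen by the 3-week counts, so no test is given.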
